A study of Mus musculus with 12 samples.

Results

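Shh, Foxa1, Foxa2, Nkx2-2, Nkx2-9, Nkx6-1 and Nkx6-2 are 7 genes that pattern the ventral side of the embryonic neural tube. They were chosen by symbol: all probe sets (groups of array probes for a transcript) assigned to one of them in the probe annotation were taken, which gave 8 of the 45101 probe sets on the array. Shh had a pair of probe sets and the other members had 1 each. The array covers 18193 genes with a symbol of their own, of which 12845 were kept for testing, all 7 members among them. A probe set was kept if at least 3 of the 12 arrays gave it a signal above 107, which was the median over all probe sets and arrays. For Nkx2-9 and Nkx6-2 the signal was near that limit, passing it on 6 and 8 of the 12 arrays.

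Shh encodes a secreted signalling protein made by the notochord and then by the floor plate, the strip of cells at the ventral midline of the neural tube. It acts through the receptor Patched and the transducer Smoothened on the Gli transcription factors, and cells nearest the source take ventral fates. FoxA proteins are forkhead transcription factors of the floor plate and ventral midline, and Nkx2-2, Nkx2-9, Nkx6-1 and Nkx6-2 are homeodomain factors induced by Shh in ventral progenitors. Serotonin neurons of the hindbrain arise from ventral progenitors next to the floor plate in which Nkx2-2 is expressed. Foxa1 and Foxa2 also act in the formation of midbrain dopamine neurons, and Foxa2 in that of serotonin neurons.

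The members were measured on Affymetrix Mouse 430 2.0 arrays hybridized with RNA of sorted mouse cells. The study asked which genes serotonin neurons of the rostral and the caudal hindbrain share and which differ between them. All 12 arrays came from embryos at stage E12.5 of the genotype ePet-EYFP, a transgene in which a Pet-1 enhancer drives the yellow fluorescent protein EYFP in serotonin neurons. Neural tubes were cut at the pontine flexure into a rostral part, reaching forward to the mesencephalic flexure, and a caudal part, reaching back to the spinal cord, and cells were dissociated, sorted by fluorescence and collected as 200000 cells per array. R+ and C+ are the YFP-positive cells of the rostral and caudal part, R- and C- are the YFP-negative cells of the same parts, and each group has 3 arrays. The labels call R- and C- non-5HT neurons, but the gate kept every cell without YFP, so they also hold progenitors, other neurons and blood cells. Whether a cell entered R+ or R- was decided by the activity of the enhancer, and a serotonin lineage cell in which it was not yet active would be sorted as negative. The labels call the replicates biological without saying whether they came from separate litters or pools of embryos, so the p-values measure only the spread between these arrays. In such bulk samples fewer cells of a type and less RNA per cell cannot be told apart.

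The start regions of members that differed between the sorted populations are shown first, because Foxa1, Foxa2 and Nkx2-2 were all higher in C+ than in C- and Foxa2 and Nkx6-1 changed sides between the domains. Each line holds the 250 bases before the gene's first annotated start in RefSeq (build GRCm38.p6, minus strand, 5′ to 3′), and capitals mark a match to a searched motif. The regions are chr12:57546112-57546361 for Foxa1, chr2:148046970-148047219 for Foxa2, chr2:147186403-147186652 for Nkx2-2 and chr5:101664712-101664961 for Nkx6-1.
Foxa1: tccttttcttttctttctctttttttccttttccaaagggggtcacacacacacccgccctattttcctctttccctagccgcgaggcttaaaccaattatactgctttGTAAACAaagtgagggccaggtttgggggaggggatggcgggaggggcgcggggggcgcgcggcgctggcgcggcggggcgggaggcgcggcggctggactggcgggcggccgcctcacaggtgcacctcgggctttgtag
Foxa2: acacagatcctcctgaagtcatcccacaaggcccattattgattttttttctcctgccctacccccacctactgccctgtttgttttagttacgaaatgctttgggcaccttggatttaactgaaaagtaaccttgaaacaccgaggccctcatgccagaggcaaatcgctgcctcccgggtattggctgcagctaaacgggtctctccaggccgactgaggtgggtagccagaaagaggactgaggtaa
Nkx2-2: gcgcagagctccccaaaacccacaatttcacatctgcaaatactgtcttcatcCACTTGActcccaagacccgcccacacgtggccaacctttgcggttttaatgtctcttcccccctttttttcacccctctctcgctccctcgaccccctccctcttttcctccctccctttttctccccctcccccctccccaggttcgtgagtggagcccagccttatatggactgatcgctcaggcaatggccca
Nkx6-1: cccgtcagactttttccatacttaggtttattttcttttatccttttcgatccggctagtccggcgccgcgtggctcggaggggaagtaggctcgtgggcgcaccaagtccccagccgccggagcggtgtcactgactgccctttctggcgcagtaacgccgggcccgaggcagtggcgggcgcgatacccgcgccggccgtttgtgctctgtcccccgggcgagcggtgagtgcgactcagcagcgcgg
Windows of 300 bases, 250 before and 50 after a start, were searched on both strands for 4 motifs. Of the 7 members 6 had 8 such windows, while Shh had no window and was not searched. The Foxa1 window held 1 match to the forkhead motif TGTTTAC, on the reverse strand with its first base 141 bases before the start; 3.65% of the 32851 windows in the table held this motif. In the Nkx2-2 window there was 1 match to TNAAGTG, a motif of Nkx2 factors, 197 bases before the start and again on the reverse strand, and 11.5% of all windows held it. The Nkx2-9 window held 1 match to CCACCCA, the core of the Gli motif, 207 bases before its start, against 9.3% of all windows. No match to any of the 4 motifs was in the 3 windows of Foxa2 or those of Nkx6-1 and Nkx6-2, and TTAATT, a motif of Nkx6 factors held by 11.3% of all windows, was in none of the members' windows. Nkx2-2 and Foxa2 lie near each other on chromosome 2, with Pax1 as the only protein-coding gene between them. Nkx2-4 is the neighbour of Nkx2-2 on its other side. Nkx2-9 lies on chromosome 12 next to Nkx2-1, and Foxa1 on the same chromosome next to Mipol1.

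The populations were as labelled by their serotonin markers. All 8 of 8 (among them Tph2, which makes serotonin, and Slc6a4, which takes it up) were higher in R+ than in R- and in C+ than in C-, with summed signals of 59556 to 65937 in R+, 4665 to 5039 in R-, 43215 to 47351 in C+ and 2228 to 3297 in C-. Median signals ran from 93 to 121 over the arrays. The ratio of 3′ to 5′ probe sets for beta-actin, which rises as RNA degrades, was 2.64 to 4.39 on the 6 rostral arrays and 4.52 to 7.69 on the 6 caudal arrays, so this ratio moved with the domain. With this ratio as a covariate each called value of a member kept its call and direction. Same-numbered arrays of different groups deviated together, most of all those of replicate 1. A fit with the replicate number as a block is given where it changes a call on a member or a count given for a list.

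In the caudal domain 5 of the 7 members were higher in serotonin neurons than in the other cells: Shh, Foxa1, Foxa2, Nkx2-2 and Nkx6-1. In the rostral domain Nkx2-2 alone of the 7 was higher in serotonin neurons, Foxa2 and Nkx6-1 were lower, and Shh and Foxa1 did not pass the test. Of all genes tested, 4.34% were called higher and 7.86% lower in R+ than in R-, and 5.71% were called higher and 7.39% lower in C+ than in C-. These calls, like all others here, are at an adjusted p under 0.05 (Benjamini-Hochberg) in a limma fit of log2(signal + 10), and a difference is given on this scale with its standard error (SE). The median difference was -0.17 over the 7 members and -0.01 over all genes in the rostral domain, and 2.46 and -0.04 in the caudal domain.

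**Figure D1:**
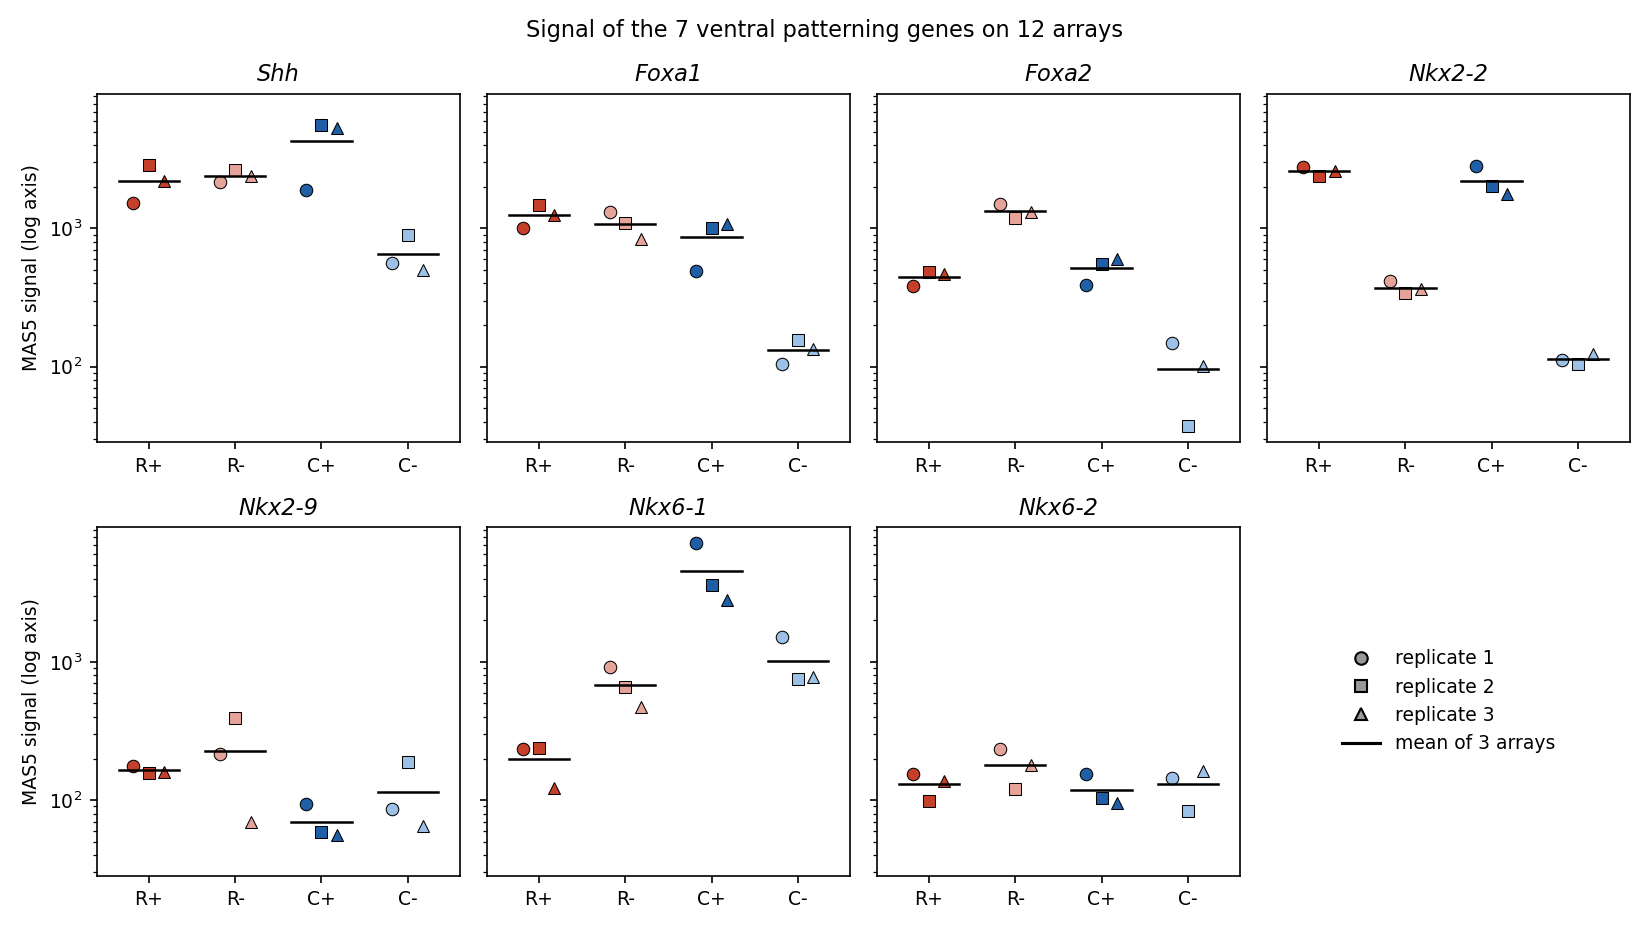
Signal of each member on each array (log axis), with a marker shape for each replicate number and a line at the mean of the 3 arrays of a group. Nkx2-2 is high in both YFP-positive populations, Nkx6-1 is highest in C+ and lowest in R+, and Shh, Foxa1 and Foxa2 are lowest in C-.

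Shh, the ligand, gave signals of 1897, 5595 and 5351 on the C+ arrays and of 562, 892 and 504 on the C- arrays. Every C+ array lay above every C- array, and the difference was 2.58 (SE 0.35, adjusted p = 0.00011), a 6.0-fold higher level. In the rostral domain the signals were 1526, 2863 and 2208 in R+ and 2174, 2633 and 2381 in R-. These 2 groups overlapped, with a difference of -0.17 (SE 0.35, adjusted p = 0.855) and a 95% interval of -0.91 to 0.58 that does not reach the caudal difference. R- stood 1.90 above C- (SE 0.35, adjusted p = 0.0065, 3.73-fold), without overlap. Ranked by mean log2 signal the groups ran C+, R-, R+ and C-; neighbours among the first 3 overlapped and only C- lay apart.

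Between the serotonin populations Shh was the member whose result turned on the fit. R+ was lower than C+ by -0.85 (SE 0.35, adjusted p = 0.155), since C+ replicate 1, at 1897, lay within the R+ range while the other C+ arrays lay at 5595 and 5351. With the replicate block the same difference passed the test (SE 0.23, adjusted p = 0.0153), in a fit that called 12.3% of all genes lower in R+. Without C+ replicate 1 it was -1.36 (SE 0.25, adjusted p = 0.00323), and without replicate 1 of every group, a setting chosen after seeing the data, -1.12 (SE 0.22, adjusted p = 0.00503). With the beta-actin ratio as a covariate it was -0.31 (adjusted p = 0.831). The second Shh probe set gave 18 to 113 over the 12 arrays and passed the filter value on 1 of them; fitted without the filter, it differed by 1.27 between R+ and R- (adjusted p = 0.242) and by 0.64 between C+ and C- (adjusted p = 0.644).

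Foxa1, a forkhead factor, gave 489, 1011 and 1082 in C+ and 104, 157 and 133 in C-. The caudal groups did not overlap, although C- lay near 107, and C+ was higher by 2.56 (SE 0.28, adjusted p = 1.27e-05, 5.89-fold). Rostrally Foxa1 gave 1009, 1478 and 1255 in R+ and 1305, 1098 and 842 in R-. These overlapped, with a difference of 0.21 (SE 0.28, adjusted p = 0.752, 95% interval -0.38 to 0.80). The 3 groups R+, R- and C+ overlapped in that order of mean level, and C- lay below all of them. R- exceeded C- by 2.94 (SE 0.28, adjusted p = 1.31e-05, 7.70-fold), whereas R+ and C+ differed by 0.60 (SE 0.28, adjusted p = 0.212).

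Foxa2, the related factor of the floor plate, had its highest level in R-. Its signals were 1503, 1189 and 1314 in R- against 380, 486 and 468 in R+, so that every rostral negative array lay above every positive one. R+ was lower by -1.57 (SE 0.33, adjusted p = 0.00537, 2.96-fold). In the caudal domain the order was turned, with 392, 552 and 601 in C+ against 148, 37 and 101 in C-, a difference of 2.46 (SE 0.33, adjusted p = 0.000117, 5.51-fold). C- was above 107 on 1 of its 3 arrays, so this fold is that of a dim signal and is understated by the added 10. R+ and C+ overlapped and differed by -0.19 (SE 0.33, adjusted p = 0.783, 95% interval -0.91 to 0.52). Among the negative cells R- exceeded C- by 3.84 (SE 0.33, adjusted p = 6.2e-06, 14.3-fold), the largest difference between R- and C- among the 7 members.

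Nkx2-2, the homeodomain factor of the progenitors that give rise to serotonin neurons, was the member higher in serotonin neurons of both domains. It gave 2782, 2384 and 2610 in R+ and 413, 340 and 365 in R-, a difference of 2.77 (SE 0.18, adjusted p = 7.95e-08, 6.81-fold). In the caudal domain it gave 2806, 2041 and 1763 in C+ and 112, 104 and 124 in C-, a difference of 4.14 (SE 0.18, adjusted p = 8.45e-10, 17.7-fold). The C- signals lay close to 107, so the caudal fold, the fold between R- and C- and the comparison of the domains rest on a dim level. In both domains all positive arrays lay far above all negative arrays. R+ and C+ overlapped (0.26, SE 0.18, adjusted p = 0.415, 95% interval -0.12 to 0.64), while R- lay above C- by 1.63 (SE 0.18, adjusted p = 5.57e-05, 3.10-fold).

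Nkx2-9, a close relative of Nkx2-2 active in the same ventral domain at earlier stages, was dim. Its signals were 176, 158 and 159 in R+, 214, 392 and 70 in R-, 94, 59 and 56 in C+ and 86, 190 and 65 in C-. The negative groups were spread wide and overlapped every other group. Neither R+ against R- (-0.15, SE 0.51, adjusted p = 0.917) nor C+ against C- (-0.54, SE 0.51, adjusted p = 0.596) passed the test. The 3 R+ arrays lay above the 3 C+ arrays, a difference of 1.16 (SE 0.51, adjusted p = 0.189) that did not pass; 10.1% of all genes had R+ arrays wholly above C+ arrays.

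Nkx6-1, the homeodomain factor of ventral progenitors whose range in the neural tube is wider than that of Nkx2-2, separated the serotonin populations most of the 7. Its signals were 7259, 3570 and 2802 in C+ against 236, 237 and 122 in R+, without overlap. R+ was lower by -4.39 (SE 0.37, adjusted p = 2.35e-06, 20.9-fold), and with the beta-actin ratio as a covariate by -5.25 (adjusted p = 1.7e-05). Nkx6-1 was the 1 member of 7 called between R+ and C+, where 2.83% of all genes were called higher and 4.48% lower in R+. Within the domains its difference took opposite signs. C- gave 1515, 749 and 773, so that C+ was higher by 2.11 (SE 0.37, adjusted p = 0.00113, 4.32-fold). R- gave 915, 658 and 474, so that R+ was lower by -1.74 (SE 0.37, adjusted p = 0.00529, 3.34-fold). The negative cells of both domains overlapped, with R- at -0.53 relative to C- (SE 0.37, adjusted p = 0.542).

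Nkx6-2, its paralogue, showed no such pattern. It gave 154, 99 and 137 in R+, 235, 121 and 179 in R-, 155, 104 and 96 in C+ and 145, 83 and 162 in C-, and neighbouring groups overlapped throughout. Its rostral difference was -0.40 (SE 0.35, adjusted p = 0.581, 95% interval -1.15 to 0.35) and its caudal difference -0.10 (SE 0.35, adjusted p = 0.903, 95% interval -0.85 to 0.65). Changes within those intervals remain compatible with the values at this dim signal.

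**Figure D2:**
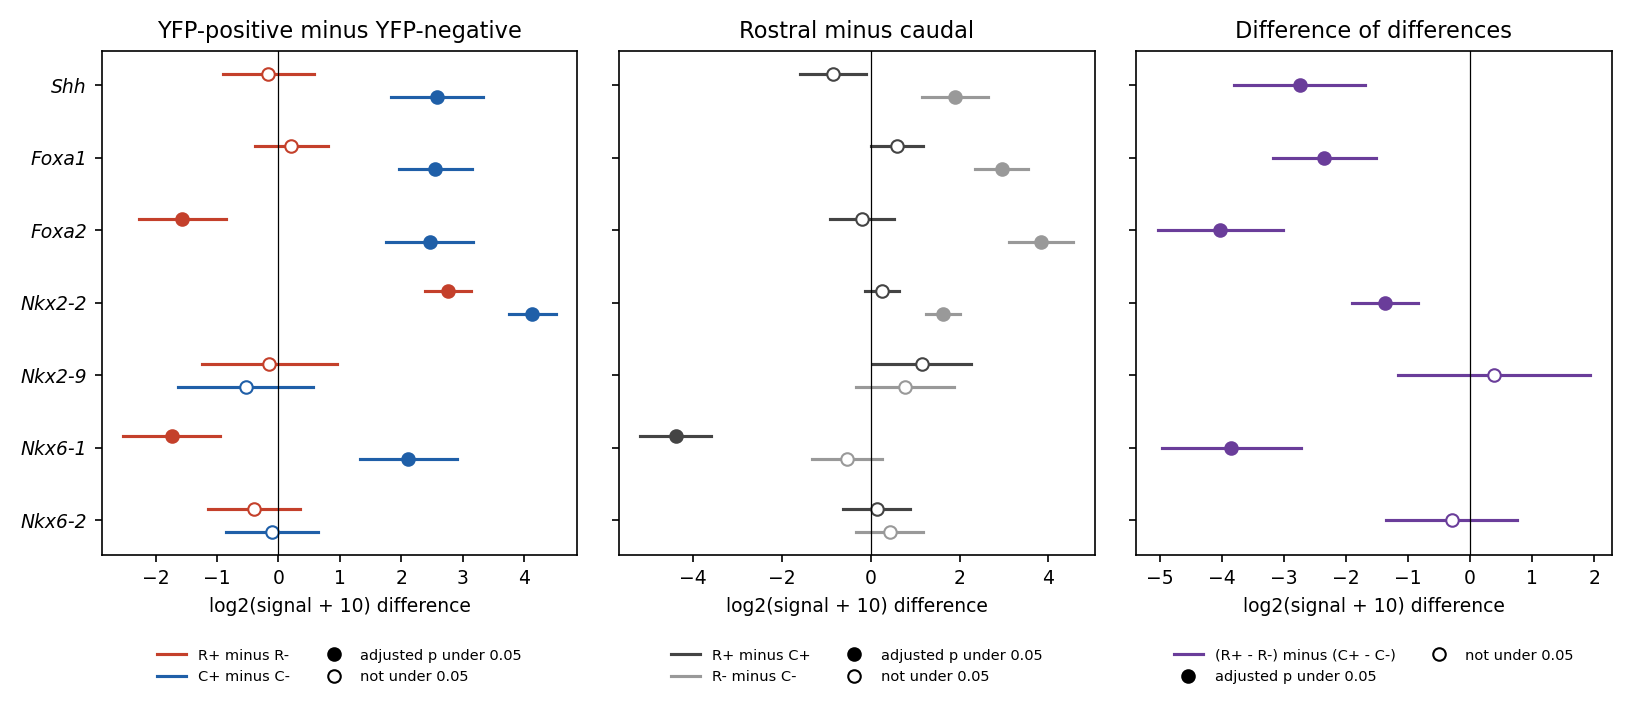
Differences in log2(signal + 10) of each member with 95% intervals (bars), for positive against negative cells (left), rostral against caudal cells (middle) and the difference of the 2 positive-minus-negative differences (right). Filled points have an adjusted p under 0.05; all 5 filled points in the right panel lie below 0, from -4.03 for Foxa2 to -1.37 for Nkx2-2.

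The positive-minus-negative difference was itself compared between the domains, as (R+ minus R-) minus (C+ minus C-). It was lower rostrally for 5 of the 7 members and higher for 0, while 0.677% of all genes were called lower and 0.49% higher in this comparison. The values were -4.03 for Foxa2 (SE 0.47, adjusted p = 0.000283), -3.85 for Nkx6-1 (SE 0.52, adjusted p = 0.00114), -2.75 for Shh (SE 0.49, adjusted p = 0.00977), -2.35 for Foxa1 (SE 0.39, adjusted p = 0.00607) and -1.37 for Nkx2-2 (SE 0.25, adjusted p = 0.0108). For Nkx2-9 the value was 0.39 (SE 0.73, adjusted p = 0.987) and for Nkx6-2 -0.30 (SE 0.50, adjusted p = 0.978). The call on Shh was lost when limma's spread was moderated without its trend on signal (adjusted p = 0.0563).

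The 5 members reached this value by different routes. For Shh, Foxa1, Foxa2 and Nkx2-2 the negative cells differed between the domains: these 4 of 7 members were higher in R- than in C-, where 1.05% of all genes were called higher and 1.78% lower. For Nkx6-1 the positive cells differed instead. Shh had a part in the positive cells as well, at -0.85 for R+ against C+, which passed the test only in some fits. Foxa2 and Nkx6-1 were called in opposite directions in the 2 domains, lower in R+ than in R- and higher in C+ than in C-. Of all genes 11, or 0.0856%, had this pattern, and the others included Shox2, a homeobox gene (-2.59 and 2.44), and Tac1, the precursor of substance P (-1.67 and 2.72). Nkx2-2 was among the 347 genes (2.7%) called higher in both domains.

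Beside these higher levels in R- stand other differences between the negative populations. Serotonin markers were called higher in R- than in C- for 5 of 8, with 0 lower (1 with the replicate block, Lmx1b). The 5 became 3 without R- replicate 2 and 2 without R- replicate 3 or C- replicate 3. Ddc, an enzyme shared by serotonin and dopamine synthesis, gave 1315 to 1739 in R- against 117 to 135 in C-. The defining serotonin markers were dim in both, at 20 to 83 in R- and 18 to 41 in C- for Tph2 and at 66 to 124 and 13 to 65 for Slc6a4. Of 5 measured dopamine neuron markers 2 were higher in R- than in C-, Nr4a2 (1.61) and En1 (2.10). En1 was higher still in R+ than in R- (1.56, SE 0.29), whereas Nr4a2 was lower in R+ (-2.67, SE 0.18). The summed signal of the 5 markers was 4422 to 7114 in R- against 1714 to 1911 in C-. Most of this sum was Nr4a2, with mean signals of 3985 in R- and 1267 in C-. Th (1.30, adjusted p = 0.0882) passed only with the replicate block (adjusted p = 0.0382), and Pitx3 and Slc6a3 of that list were not called. The part of these cells in the levels of Shh, Foxa1, Foxa2 and Nkx2-2 in R- was not tested.

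Within both serotonin populations replicate 1 gave the lowest signal of Shh, Foxa1 and Foxa2 and the highest signal of Nkx2-2, Nkx2-9 and Nkx6-2. Those are 3 of 7 members each, and over all genes replicate 1 was lowest in both R+ and C+ for 33.4% and highest in both for 18.3%, so the count of lowest members is near the share of all genes. In C+ the distance was large for Shh, at 1897 against 5595 and 5351, and for Foxa1, at 489 against 1011 and 1082. Nkx6-1 went the other way in C+, at 7259 against 3570 and 2802. Of the 7 measured floor plate markers replicate 1 was lowest for 4 in R+, against 46.5% of all genes, and for 6 in C+, against 50.8%, with C+ signals of Sulf1 at 3088 against 8868 and 8706 and Corin at 142 against 562 and 367. The summed signal of the serotonin markers was 43215 to 47351 on the 3 C+ arrays. Single markers spread differently, with Gata2 at 8003 to 8257 and Lmx1b at 4956 to 7360 in C+. C+ replicate 1 also had a lower beta-actin ratio, at 4.52 against 5.93 and 6.92. What share of floor plate cells each sort held, and the part of RNA quality in these distances, were not tested.

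**Figure D3:**
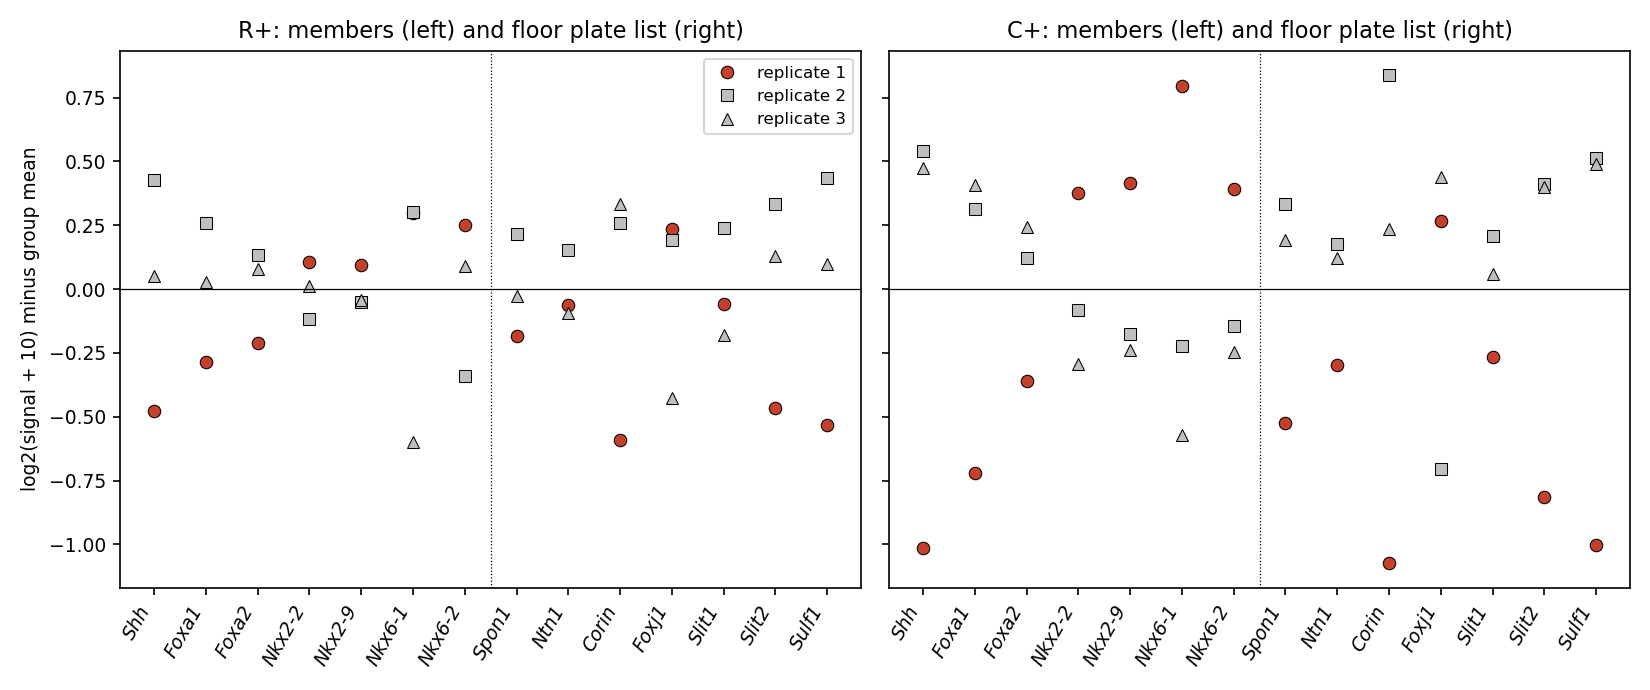
Deviation of each R+ array (left) and C+ array (right) from its group mean in log2(signal + 10), for the 7 members and the 7 measured floor plate markers, with replicate 1 in red; in R+ the Nkx6-1 point of replicate 1 lies under that of replicate 2, at 236 and 237. In C+ replicate 1 lies below the mean for Shh, Foxa1, Foxa2 and all floor plate markers but Foxj1, and above it for the 4 Nkx genes.

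Of 10 floor plate genes 7 were measured, of which 4 were higher in C+ than in C- and 0 lower: Corin, a membrane protease (2.13, SE 0.47), Sulf1, a sulfatase that trims heparan sulfate (1.70, SE 0.33), Spon1, a matrix protein (1.69, SE 0.18), and Ntn1, an axon guidance protein (1.01, SE 0.14). With the replicate block, or without C+ replicate 1, Slit1 and Slit2 passed as well. In the rostral domain 0 of 7 passed, and 1 (Slit1, 0.54) with the block or without C+ replicate 1. Slit1 also passed rostrally without R- replicate 2 (0.73). The median difference of the list was 1.01 caudally and 0.04 rostrally. The difference of differences was called lower for Spon1 (-1.66, SE 0.26) and Ntn1 (-1.25, SE 0.20), and with the block or without C+ replicate 1 for Sulf1 too.

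Of the genes that make or release hedgehog ligands, Disp2, a relative of the Dispatched release protein Disp1, was the 1 of 5 called within the domains. It was higher in serotonin neurons of both, by 1.44 rostrally (SE 0.13) and by 1.48 caudally (SE 0.13). Most genes that receive the signal were lower in the serotonin neurons. Of 5 receptors and co-receptors 4 were lower in R+ than in R- and 3 lower in C+ than in C-, with medians of -1.74 and -0.92. Gas1, a co-receptor, differed by -3.18 (SE 0.33) and -3.45 (SE 0.33), Boc by -2.0 (SE 0.24) and -2.24 (SE 0.24) and Cdon by -1.74 (SE 0.20) and -0.92 (SE 0.20). Smo, the transducer, was lower rostrally (-1.24, SE 0.23), and its caudal value of -0.53 (adjusted p = 0.183) passed only with the replicate block (adjusted p = 0.0109). Ptch1, the receptor and itself a target of the pathway, differed by -0.29 (adjusted p = 0.307) and -0.48 (adjusted p = 0.0589); the caudal value passed with the block (adjusted p = 0.0062), with quantile normalization (adjusted p = 0.0366) and without C+ replicate 2 (adjusted p = 0.0172).

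Among 10 genes of signal transduction 3 were lower and 0 higher in R+ than in R-, and 3 were lower and 1 higher in C+ than in C-; with the replicate block Sufu, an inhibitor of Gli factors, was lower too in both domains (4 each). Gli2, a transcriptional effector, was lower in serotonin neurons by -2.83 (SE 0.38) and -3.0 (SE 0.38), and Gli3, the main repressor, by -1.80 (SE 0.20) and -0.99 (SE 0.20). Gli1, whose expression follows pathway activity, did not pass, at -0.74 (SE 0.44, adjusted p = 0.356) and -0.34 (SE 0.44, adjusted p = 0.71). Its 95% intervals were wide, at -1.67 to 0.198 rostrally and -1.27 to 0.598 caudally. Changes within them remain compatible with the values, so Gli1 was not shown to be unchanged. The remaining calls were weak. Evc was lower rostrally (-2.20), a call lost without R- replicate 3 (adjusted p = 0.0605), and Evc2 lower (-1.15) and Stk36 higher (0.52) caudally, each lost in 7 of the 12 fits without 1 array.

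Of 9 genes listed as other ventral factors 3 were lower rostrally (5 with the replicate block), and 4 lower and 1 higher caudally. Olig2, of motor neuron progenitors, differed by -2.13 (SE 0.55) and -1.97 (SE 0.55), though each call was lost in 5 of the 12 fits without 1 array; it was lost rostrally without any R- array or without R+ replicate 2 or 3, and caudally without any C- array or without C+ replicate 2 or 3. Olig2 signals were dim, at 20 to 35 in R+, 120 to 180 in R-, 8 to 36 in C+ and 76 to 133 in C-. Isl1, of motor neurons, differed by -1.76 and -2.26. Tlx3, on this list although it is a factor of dorsal excitatory neurons, differed by -2.67 and -3.01. Foxn4, of ventral interneuron progenitors, was lower caudally (-2.54). The gene higher in C+ was Insm1 (1.25, SE 0.21), a zinc finger factor of new neurons.

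Intermediate and dorsal factors were lower for 12 of 15 in R+ (13 with the replicate block) and for 15 of 15 in C+, with medians of -2.41 and -2.43. Pax7, of dorsal progenitors, differed by -3.81 (SE 0.40) and -3.97 (SE 0.40), from dim signals of 67 to 198 in R+ and 4 to 23 in C+. Of 10 neural progenitor markers 10 were lower in R+ and 8 in C+, and of 7 markers of dividing cells 6 and 5; with the block the C+ counts were 9 and 6. The summed progenitor signal was 19583 to 21245 in R+ against 48044 to 59876 in R-, and 20729 to 26435 in C+ against 49254 to 53630 in C-. Thus Shh, Foxa1, Foxa2, Nkx2-2 and Nkx6-1 were higher in C+ than in C- while general progenitor markers were lower there. Of 5 other measured Nkx and FoxA family genes, Nkx1-2 was lower in R+ (-2.53, SE 0.52) and 0 passed in C+ against C-, or Nkx1-2 (-1.25, adjusted p = 0.0316) with the block. Red blood cell markers, 4 of 4 measured, were lower in both positive populations, with summed signals of 8693 to 15580 in R+, 45070 to 59141 in R-, 4792 to 8626 in C+ and 40427 to 44926 in C-; their part in the levels of the negative cells was not tested.

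**Figure D4:**
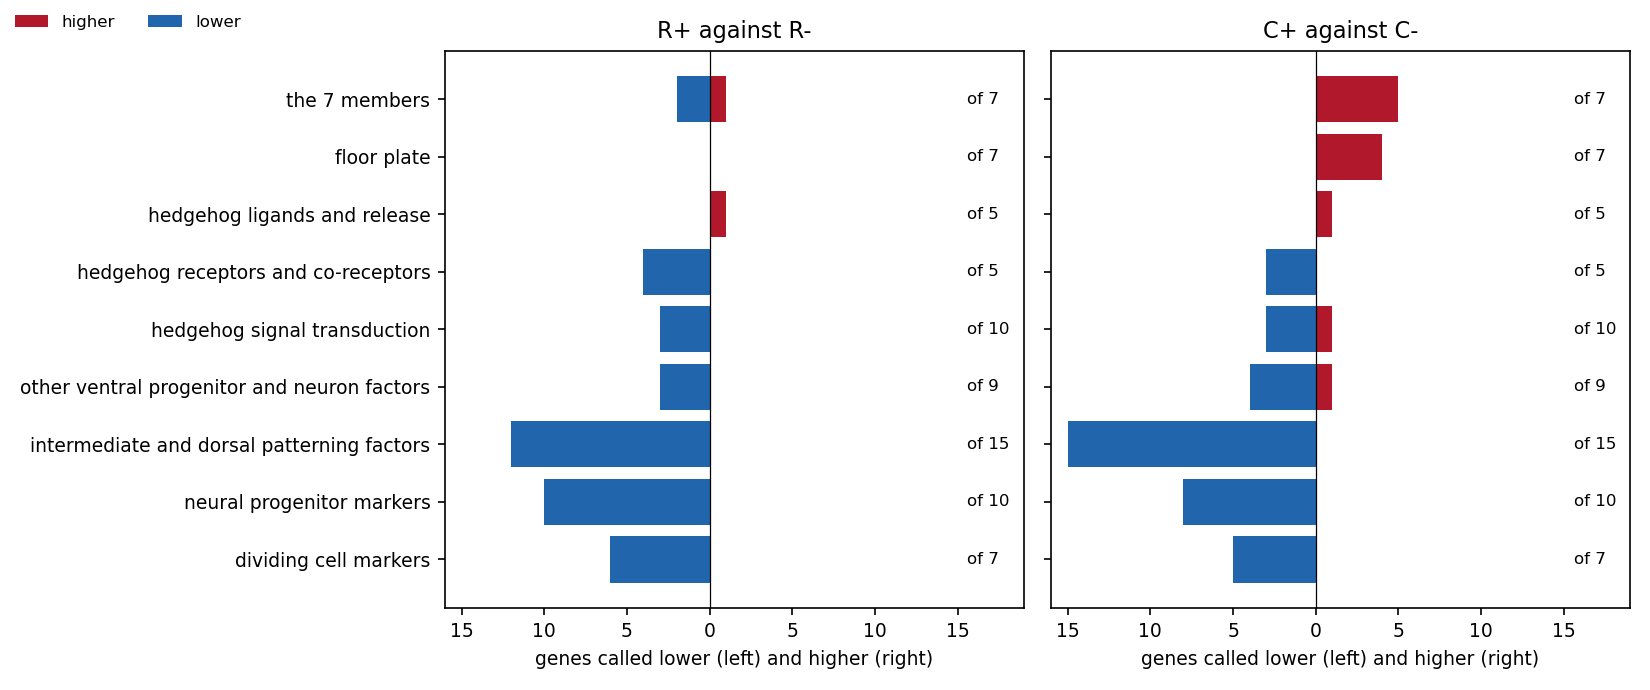
Number of genes called lower (blue, to the left) and higher (red, to the right) in YFP-positive than in YFP-negative cells, for the 7 members and 8 gene lists, with the number measured beside each bar. In the caudal domain 5 of 7 members and 4 of 7 floor plate markers are higher, while 15 of 15 intermediate and dorsal factors are lower.

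Over the 12 arrays Foxa1 correlated most with Shh (Pearson r = 0.856) and Foxa2 (r = 0.83) among the members, and Nkx6-1 with no other member above 0.158. These correlations describe the arrays only, since the points share 4 groups and 3 replicate numbers. Across all kept genes the pattern nearest to Shh was that of Nek7, a kinase (r = 0.942), and it was also nearest to Foxa1 (r = 0.934). Gas2l3 and Tspan3 followed for Shh (0.922 and 0.914), and Dgkk and Tmem234 for Foxa1 (0.93 and 0.908). Foxa2 ran closest to Mcoln3 (r = 0.937), Kcnab1 (0.894) and Cxcr4 (0.874), a chemokine receptor. Nkx2-2 ran closest to Klhdc8b (r = 0.987), Negr1 (0.986) and Ccdc184 (0.985). For Nkx6-1 the nearest were G630016G05Rik (r = 0.951), Bod1l (0.949) and Shox2 (0.949); Shox2 shared its opposite signs in the domains, with mean signals of 18210 ± 1238 (SD, n = 3) in C+ and 478.3 in R+. Nkx2-9 ran closest to Nkx2-4 (r = 0.862) and Nkx6-2 to Gatc (r = 0.944). Both members were dim, and Nkx2-4 gave 20 to 149 over the arrays, so these correlations rest on signals near the filter value.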

How the data were processed

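RNA of 12 sorted samples in 4 groups of 3 was measured on Affymetrix Mouse 430 2.0 arrays. The deposited values are signal intensity on a linear scale, 1 per probe set; they were made with MAS5 per the submitters' processing notes, with settings not given in the sources used. On every array the mean signal without the lowest and highest 2% was 500. Of 45101 probe sets, 64 controls were left out, 34945 had 1 gene symbol and 932 had several. A gene was represented by its kept probe set of highest mean log2 signal. Folds were computed on the log2(signal + 10) scale, which understates changes of dim genes.

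With limma 3.58.1 in R 4.3.3 (eBayes with trend) a mean was estimated for each group from all 12 arrays together, and 5 two-sided contrasts were adjusted over 12845 genes each. The procedure was run on simulated data with independent noise on each array. Such data lack the correlation of same-numbered arrays given next, so they cannot show how the unpaired fit performs under it. Replicate numbers recurred across groups, and deviations of same-numbered arrays correlated at 0.118 to 0.52 in all 18 pairs. By number the range was 0.334 to 0.52 for 1, 0.118 to 0.221 for 2 and 0.139 to 0.241 for 3. Other arrays correlated at -0.398 to 0.273 in 36 pairs, a range that holds the values of numbers 2 and 3. The data thus set replicate 1 apart more than they show a pairing by number. The main fit was unpaired, and the number entered as a block in an alternative. The alternatives were the offset, the filter, scaling, the block, the probe set rule, moderation, the arrays fitted, a beta-actin covariate and leaving out arrays.

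The members and the gene lists were chosen with earlier results of these data known. Beyond the members, at most 4 called genes of a list and comparison were named by largest difference, together with Ptch1, Gli1 and Olig2, and for each member up to 3 genes of highest correlation; a further gene that the rule names is not reported here. Promoter windows came from a RefSeq table of GRCm38.p6. The number of arrays limits the precision.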

Additional observations from a re-analysis of the deposited data

Results flagged for a closer look

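For 5 members the difference between serotonin neurons and the other cells was not the same in the rostral and the caudal domain, by limma's test of (R+ minus R-) minus (C+ minus C-) in log2(signal + 10). The value was -4.03 for Foxa2 and -3.85 for Nkx6-1, and in both the differences had opposite signs in the 2 domains, each called. It was -2.75 for Shh and -2.35 for Foxa1, which were higher in C+ than in C- while R+ and R- overlapped. For Nkx2-2 it was -1.37, with higher levels in serotonin neurons of both domains. The domains also differed in the beta-actin 3′ to 5′ ratio, 2.64 to 4.39 rostrally and 4.52 to 7.69 caudally; all 5 calls remained with this ratio as a covariate.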

How the results depend on the processing

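Of 868 values of a member in a comparison under 25 alternatives, 855 kept their direction and their side of the threshold. No called value changed sign, but 9 values called in neither fit did. Over the fits without 1 array, Shh in R+ against R- ran from -0.378 to 0.074 (above 0 without R+ replicate 1), Nkx2-9 there from -0.785 to 0.379 (above 0 without R- replicate 2), Nkx6-2 in C+ against C- from -0.375 to 0.068 (above 0 without C+ or C- replicate 3) and the difference of differences of Nkx2-9 from -0.25 to 0.914 (below 0 without C- replicate 2 or R- replicate 3). Without replicate 1 of every group Shh in R+ against R- was 0.006, and with the actin covariate Foxa2 and Nkx6-2 in R+ against C+ were 0.223 and -0.19. The side of the threshold changed for Shh alone: its difference of differences was -2.75 without the trend (adjusted p = 0.0563), and between R+ and C+ it passed with the replicate block (-0.85), without C+ replicate 1 (-1.36) and without replicate 1 of every group (-1.12). The count of members called between R+ and C+ was thus 2 instead of 1 with the replicate block and without replicate 1 of every group, and 1 to 2 over the fits without 1 array. The block changed no other call on a member.

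Counts over all genes moved more. With the replicate block 2684, 2929, 2795, 1310 and 340 genes were called, against 1567 (R+ and R-), 1683 (C+ and C-), 940 (R+ and C+), 363 (R- and C-) and 150 (difference of differences). Between R+ and C+ the count was 505 with arrays scaled to one median, 609 without the trend, 605 with only these groups, 216 with the actin covariate, 1813 without replicate 1 of every group, 1744 without C+ replicate 1, 503 without R+ replicate 1, 385 without C+ replicate 2, 402 without C+ replicate 3 and 391 without R+ replicate 3. Between R- and C- it was 216 with the covariate, 238 without C- replicate 2, 198 without R- replicate 3 and 220 without C- replicate 3. Scaling to one median raised the share of calls that were higher from 37.2% to 51.8% for R- against C- and lowered it from 42% to 31.4% for the difference of differences. The cause was not tested. Dim signals limit Nkx2-9, Nkx6-2 and the C- levels of Foxa1, Foxa2 and Nkx2-2.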

Other observations

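Of 8 general neuron markers 2 were higher in R+ than in R- and 2 in C+ than in C-, with 0 lower in either. In both domains these were Elavl4 (0.44 and 0.48) and Snap25 (0.58 and 0.47). The tubulin gene Tubb3 (0.30 rostrally and -0.23 caudally) and the growth cone gene Gap43 (0.76 and 0.87) were not called in the main fit. With the replicate block the counts of higher markers were 4 and 3, and the caudal count was 1 without C- replicate 1 or 3 or without C+ replicate 2. The summed signal of the 8 markers was 80353 to 97607 in R+, 63617 to 81822 in R-, 69297 to 91398 in C+ and 72683 to 85319 in C-. Of the 4 V3 interneuron markers, which include Nkx2-2 itself, 1 was higher and 1 lower in each domain (2 lower caudally with the block, with Uncx added), and Sim1, the factor that defines those neurons, differed by 0.23 rostrally (adjusted p = 0.796) and 0.05 caudally (adjusted p = 0.963).

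Of 15 intermediate and dorsal factors 3 were higher and 1 lower in R+ than in C+, and 4 were higher and 2 lower in R- than in C- (4 and 1, and 4 and 3, with the block). Irx3 was 1.73 higher in R+ than in C+ and 1.56 higher in R- than in C-, and Irx5 1.40 and 1.26. Lbx1 was lower rostrally, by -1.19 between R+ and C+ (adjusted p = 0.0194) and by -1.85 between R- and C- (adjusted p = 0.00136) in limma's test. The Lbx1 call between R+ and C+ was lost without R+ replicate 1 or 3 and without C+ replicate 2 or 3.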
